A study of Rattus norvegicus with 5 samples.

Results

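Long, low pileups of PARP1 ChIP-seq reads on the placed autosomes of the rat were described in central amygdala libraries. A listed peak was counted as long and low when it spanned at least 300 bp from start to end and its height, the number of overlapping reads at its summit, was at most 5. Regions were chosen by these lengths and heights in 3 libraries: listed peaks of that kind on chromosomes 1 to 20 were merged where they overlapped, and a merged region was kept when at least 2 of the 3 libraries held a long low peak in it and no listed peak above 5 reads overlapped it in any of 4 libraries. Of 16578 merged regions, 60 met this rule. They make up 0.368% of the 16311 merged regions with no peak above 5 reads. Since lengths and heights chose the regions, their number, lengths and heights are given as a description, and no test is built on them.

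Male Sprague Dawley rats gave the chromatin, taken from their central amygdala and precipitated with an antibody to PARP1. The high preference group and the low preference group were rats trained for 10 days in cocaine conditioned place preference, with 15 mg/kg cocaine intraperitoneally on days alternating with saline, that later showed a high or a low preference for the compartment paired with cocaine. The control group had received saline only. Conditioning sessions lasted 20 min. The preference test of 15 min was held 24 h past the final injection, and tissue was collected as soon as it ended. Each library pooled 2 rats, with 1 library for high preference, 1 for low preference and 2 for saline, so a value of a cocaine group has no replicate behind it.

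PARP1 is a nuclear enzyme that binds breaks in DNA and joins chains of ADP-ribose to itself, to histones and to other proteins. It also sits on intact chromatin, where it takes part in loosening nucleosomes and in the control of transcription. In conditioned place preference an animal learns to link a place with a drug, and the central amygdala is a brain region studied for the emotional side of drug memory. In ChIP-seq a long, low pileup is a run of fragments that overlap in a chain without stacking at a single point.

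The 3 deeper libraries, those of high preference, low preference and saline replicate 2, listed 3249950, 3918162 and 3852448 peaks on the placed autosomes. Saline replicate 1 was much shallower with 763427 listed peaks. It had no part in the choice by length, and entered the rule only through its peaks above 5 reads. The median listed peak was 76 to 79 bp long in the 4 libraries. Long low peaks were therefore rare, at 3639 in high preference, 6676 in low preference and 6363 in saline replicate 2, or 0.112%, 0.170% and 0.165% of the listed peaks. In saline replicate 1 there were 61. The order of these counts followed the number of listed peaks, and depth and group cannot be told apart for a cocaine library. Genes and sequences at the regions were not analysed here, since the coordinates are those of rn4 and the reference tables used hold another assembly.

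The 60 regions were spread over 18 of the 20 autosomes, with none on chromosomes 13 and 18. Their merged lengths ran from 339 to 976 bp with a median of 516 bp. A long low peak was found in high preference at 34 of them, in low preference at 47 and in saline replicate 2 at 41. High and low preference alone shared 19 regions, high preference and saline replicate 2 shared 13, and low preference and saline replicate 2 shared 26. Only 2 regions were long in all 3. The tallest listed height in any library was 5 reads at 31 regions, 4 at 26 and 3 at 3.

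The first of the 2 regions long in all 3 libraries lay on chromosome 1 at 73406977 to 73407855. Its longest listed peak was 442 bp in high preference, 333 bp in low preference, 449 bp in saline replicate 2 and 61 bp in saline replicate 1. The heights were 5, 4, 5 and 2 reads in the same order, where a height given for a region is that of its tallest listed peak in the library, which need not be the longest. The shallow saline library held only a single short peak there. The long peaks of high and low preference did not overlap each other directly and were joined by that of saline replicate 2. A second region, at 73410918 to 73411431, followed on the same chromosome. It was long in high preference and saline replicate 2, with 490 and 484 bp, and reached 273 bp in low preference and 100 bp in saline replicate 1. The tallest height was 5 reads in both cocaine libraries and 4 in both saline libraries.

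The other region long in all 3 lay on chromosome 14 at 21936331 to 21937153. Its longest listed peak spanned 438 bp in high preference, 348 bp in low preference, 701 bp in saline replicate 2 and 75 bp in saline replicate 1. The height was 5 reads in each of the 3 deeper libraries and 2 in saline replicate 1. A single further region had 5 reads in all 3 deeper libraries, on chromosome 17 at 53694069 to 53694532. There the longest peak was 155 bp in high preference, 454 bp in low preference, 302 bp in saline replicate 2 and 84 bp in saline replicate 1.

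Among regions long in high and low preference only, the 3 with the largest shorter length lay on chromosomes 14, 20 and 16. On chromosome 14 at 21927145 to 21928048 the longest listed peak was 516 bp in high preference, 427 bp in low preference, 268 bp in saline replicate 2 and 167 bp in saline replicate 1. Both cocaine libraries were above both saline libraries in length, which the choice of this class fixes for saline replicate 2. In height they were not, with 5, 4, 5 and 3 reads in that order. On chromosome 20 at 30470510 to 30470886 the lengths were 376, 366, 81 and 86 bp, with heights of 3, 4, 2 and 2 reads. On chromosome 16 at 31124901 to 31125877, the longest merged region, they were 702, 364, 181 and 71 bp, with 5, 5, 4 and 2 reads. In the last case saline replicate 2 listed 6 separate peaks within the region, where high preference listed 2.

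Regions long in high preference and saline replicate 2 only were led by the one on chromosome 1 described above. It was followed by chromosome 9 at 850456 to 850867, where a single peak of 374 bp in high preference and of 411 bp in saline replicate 2 stood beside 257 bp in low preference and 133 bp in saline replicate 1. Saline replicate 1 reached 4 reads there, the most it held in any of the 60 regions, a height it also had at 3 others. Both cocaine libraries stood at 4 reads and saline replicate 2 at 5. On chromosome 1 at 188449950 to 188450410 the lengths were 372 bp in high preference and 371 bp in saline replicate 2, at 3 reads each. Low preference held 93 bp at 2 reads and saline replicate 1 listed nothing.

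For low preference and saline replicate 2 the leading region lay on chromosome 1 at 243630343 to 243631008. Its longest peak was 600 bp in low preference, 464 bp in saline replicate 2, 100 bp in high preference and 130 bp in saline replicate 1, with 5, 5, 3 and 3 reads. On chromosome 3 at 2022138 to 2022670 the lengths were 404 bp in low preference and 389 bp in saline replicate 2, against 120 bp in high preference and 147 bp in saline replicate 1. On chromosome 17 at 53671079 to 53671537 they were 421 and 385 bp, against 128 bp in high preference and 232 bp in saline replicate 1. By its longest listed peak, high preference was the shortest library at all 3 of these regions, below the far shallower saline replicate 1. The choice of this class fixes that high preference was not long there. By length covered the order was mixed. Listed peaks of high preference took up 38.8%, 39.3% and 53.9% of the 3 regions, and those of saline replicate 1 3.76%, 55.1% and 48.5%. The 130 bp peak of saline replicate 1 lay mostly outside the region on chromosome 1.

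**Figure D1:**
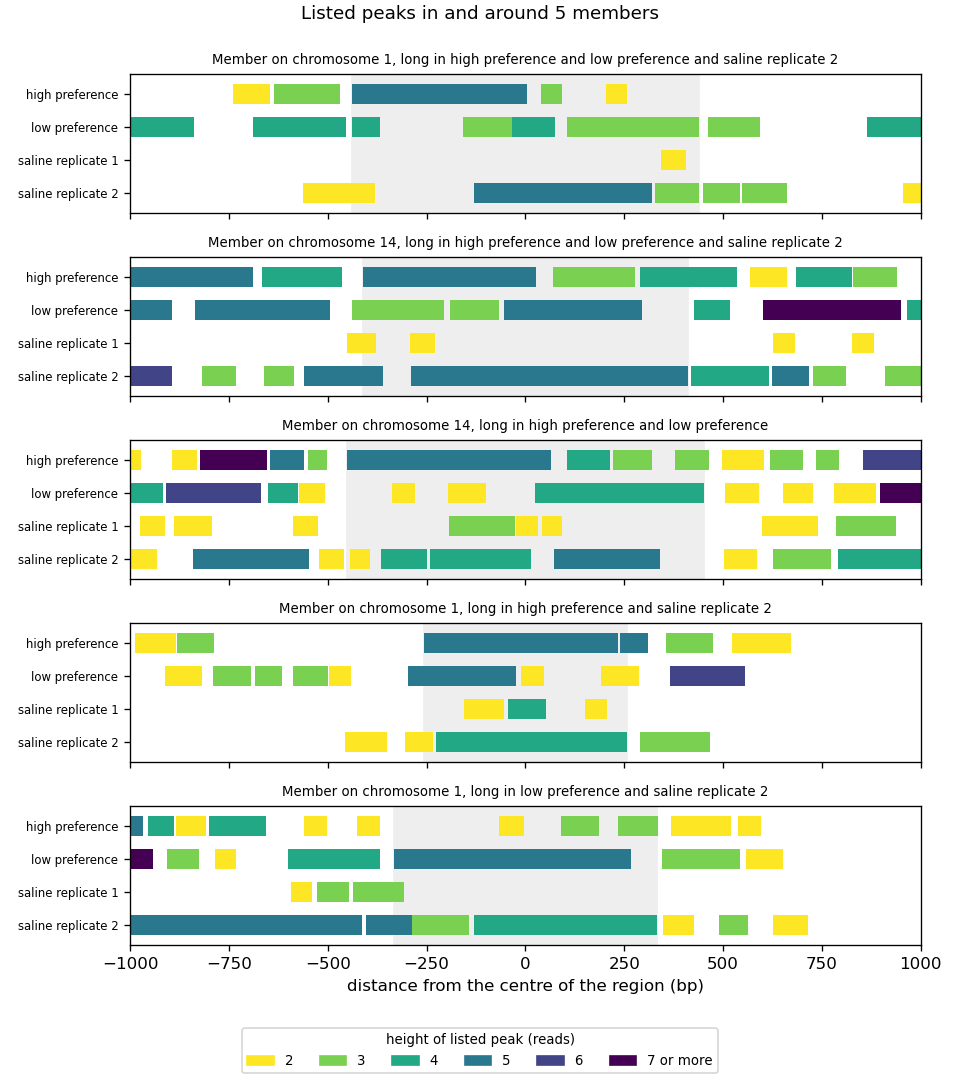
Listed peaks around the centre of 5 regions, plotted by distance from the centre (bp), with 1 row per library and the colour giving the height in reads; the grey band is the merged region. From top to bottom these are the regions on chromosome 1 at 73406977 and chromosome 14 at 21936331, long in all 3 deeper libraries, then those on chromosome 14 at 21927145, chromosome 1 at 73410918 and chromosome 1 at 243630343. In each, the long peak of a library begins and ends at other places than that of the next, and saline replicate 1 holds short peaks of at most 4 reads.

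Near the limits of the rule the values ran on without a gap. The 2 shortest regions lay on chromosome 5 at 14959626 to 14959965, where low preference had 333 bp and saline replicate 2 had 316 bp, and on chromosome 2 at 52499014 to 52499371, where they had 300 and 301 bp. High preference listed no peak in either. Just outside, where the second library missed the limit by 1 bp, a region on chromosome 1 at 26134477 to 26134829 had 352 bp in low preference and 299 bp in high preference, while a region of chromosome 13 from 12448164 to 12448475 had 311 bp in saline replicate 2 and 299 bp in low preference. A further 33 regions were long in 2 or 3 libraries and were left out for a peak above 5 reads. At 21 of these the tallest listed height was 6, and the tallest of all was 10.

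The rule was then set against the number that placement alone gives. For a pair of libraries the expected number of overlaps was computed by formula from the lengths of their long low peaks, placed uniformly along each chromosome. Gaps in the assembly counted as room, which lowers the expected number. Every overlapping pair of long low peaks was counted here, also where a peak above 5 reads kept the region out of the 60. High and low preference had 33 overlapping pairs against 6.48 expected, a ratio of 5.09 (exact 95% Poisson interval of the count over the expected number, 3.51 to 7.15). High preference and saline replicate 2 had 26 against 6.13, a ratio of 4.24 (2.77 to 6.22). Low preference and saline replicate 2 had 43 against 11.3, a ratio of 3.82 (2.76 to 5.14). The 3 intervals overlap, but they cover counting error only, treat neighbouring pairs as independent, and come from library pairs that share libraries. Whether the ratios differ between groups was not tested.

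These overlaps were a very small share of either list. They took in 0.879% of the long low peaks of high preference and 0.494% of those of low preference in the first pair. In the second pair the shares were 0.715% of high preference and 0.409% of saline replicate 2, and in the last 0.644% of low preference and 0.660% of saline replicate 2. Of the 102 overlapping pairs in all, 63 lay in the 60 regions, against 23.9 expected for all pairs. Nearly all long low peaks of a library thus had no long low partner in the library compared.

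The ratio fell when local density was taken into the expected number. With uniform placement inside bins of 1 Mb the expected numbers rose to 8.92, 8.39 and 14.7, and the ratios were 3.70, 3.10 and 2.92. With bins of 100 kb, a setting added after seeing the data, they rose to 15.2, 14.2 and 23.8 and the ratios were 2.17, 1.83 and 1.81. By that measure 53.2 of the 102 overlaps are the number expected from long low peaks lying in the same 100 kb. The lower ends of the 3 count intervals were 22.7, 17 and 31.1 pairs, above the expected numbers for 100 kb in each case. These intervals treat neighbouring pairs as independent, and 73 of the 102 overlaps lay outside the 3 stretches of close regions described below. Bins of 100 kb also do not follow density that changes over shorter distances. Whether density on a finer scale accounts for the overlaps was not tested.

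**Figure D2:**
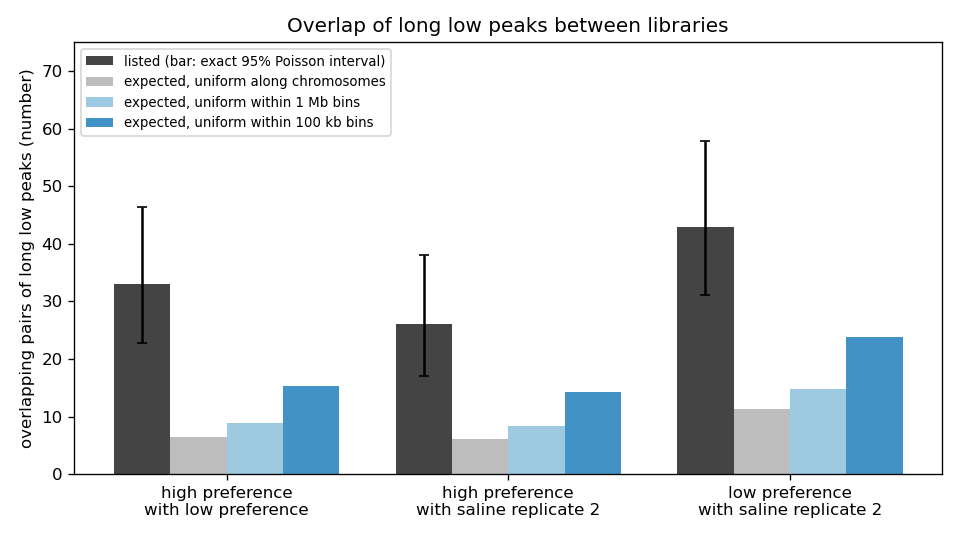
Number of overlapping pairs of long low peaks for each pair of deeper libraries (dark bars, with exact 95% Poisson intervals) beside the number expected by formula from uniform placement along chromosomes, within 1 Mb bins and within 100 kb bins. The listed numbers, 33, 26 and 43, lie above all 3 expected numbers in each pair, and the expected number rises as the bins get smaller.

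Peaks that overlapped did so to different extents. Under uniform placement 53.1% to 53.2% of overlaps would cover at least 50% of the shorter peak. Such overlaps made up 80.8% between high preference and saline replicate 2, 62.8% between low preference and saline replicate 2, and 45.5% between high and low preference. Within the 60 regions the median shared stretch was 283 bp, 230 bp and 97.5 bp in the same order. In the cocaine pair the overlap reached 50% of the shorter peak at 6 of 20 pairs in the regions, against 13 of 15 and 21 of 28 in the other pairs.

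Each pair of libraries was also used to choose overlaps for the library it left out. Of the 33 overlaps of high and low preference, 10 held a listed peak of at least 300 bp in saline replicate 2, or 30.3% (95% Wilson interval 17.4 to 47.3). Long low peaks of the same 2 libraries that did not overlap each other held one in 1.32% of cases (1.11 to 1.56). For low preference as the library left out it was 7 of 26, or 26.9% (13.7 to 46.1), against 1.24% (1.04 to 1.47). For high preference it was 8 of 43, or 18.6% (9.74 to 32.6), against 0.664% (0.538 to 0.819). The 3 shares at overlaps had intervals that overlap one another, and each lay above that at long low peaks without a partner. The 2 kinds of window were not matched for length: an overlap was taken over the full span of both peaks, the others over a single peak. The intervals treat neighbouring overlaps as independent. These counts include the regions later left out for a peak above 5 reads.

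Listed peaks of any length in the library left out covered 58.6% of the overlap regions in saline replicate 2, 67.2% in low preference and 54.5% in high preference. Over all placed autosomes the same libraries covered 13.3%, 13.6% and 11.0%. At long low peaks without a partner they covered 21.1%, 21.4% and 17.1%. In regions long in a single pair only, the remaining library usually held several short peaks rather than none. It listed nothing at 1 of 19, 1 of 13 and 5 of 26 regions, and its median longest peak was 150 bp in saline replicate 2, 134 bp in low preference and 88 bp in high preference.

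Saline replicate 1, which had no part in the length rule, held a listed peak in 36 of the 60 regions, or 60% (47.4 to 71.4, Wilson). Over all 16311 merged regions with no peak above 5 reads the share was 15.1%, and over the 16251 that were long in a single library it was 15.0% (14.4 to 15.5). Regions of 1 library are shorter, with a median of 326 bp. Among those of 500 bp or more the share was 29.2% (21 to 38.9, 96 regions), against 58.8% (42.2 to 73.6) of the 34 regions of that length among the 60. Among those of 300 to 400 bp it was 14.6%, against 7 of 11 in the 60. By length covered, listed peaks of saline replicate 1 took up 15.4% of the 60 regions, 3.85% of regions of 1 library and 2.42% of the autosomes.

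The signal of saline replicate 1 in the regions was low throughout. No region held a peak of 300 bp or more in it. The longest was 232 bp at the region of chromosome 17 at 53671079, followed by 173 bp on chromosome 14 at 93575203 to 93575845, where high preference had 311 bp, low preference 223 bp and saline replicate 2 506 bp. A length of 144 bp was reached on chromosome 15 at 30393269 to 30393805, beside 79 bp in high preference, 328 bp in low preference and 482 bp in saline replicate 2. A height of at least 3 reads was listed in 11 of the 60 regions, or 18.3%, against 2.03% of regions of 1 library. The share with a listed peak was 12 of 19 for regions of the cocaine pair, 8 of 13 for high preference with saline replicate 2 and 14 of 26 for low preference with saline replicate 2, with wide intervals of 41.0% to 80.9%, 35.5% to 82.3% and 35.5% to 71.2% that overlap one another.

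**Figure D3:**
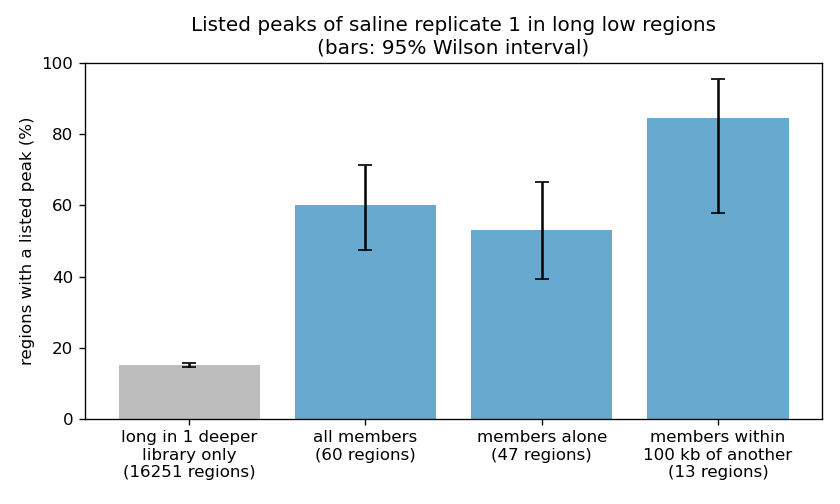
Share of regions (%) that hold a listed peak of saline replicate 1, the library outside the length rule, with 95% Wilson intervals. Regions long in 1 deeper library only stand at 15.0%, all 60 regions at 60%, the 47 without a neighbour within 100 kb at 53.2% and the 13 with such a neighbour at 84.6%.

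Some of the regions lay close together. A neighbour within 100 kb, a distance set after seeing the data, was found for 13 of the 60, in 3 stretches. A stretch on chromosome 17 from 53579967 to 53694532 held 7 regions, a stretch on chromosome 14 from 21905096 to 21941167 held 4, and the 2 neighbours on chromosome 1 made up the last. Chromosomes 14 and 17 together held 18 of the 60 regions, or 30%, and 8.54% of the merged regions with no peak above 5 reads. Without the stretches they held 5 and 2. A further region of chromosome 14 at 22164397 to 22164915 lay farther than 100 kb from the stretch there.

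The stretches of chromosomes 14 and 17 were dense in listed peaks in every library. On chromosome 17 the 115 kb held 470 listed peaks in each of high preference and saline replicate 2, 460 in low preference and 231 in the shallow saline replicate 1. Relative to the autosome mean of the library this was 3.23, 2.72, 2.62 and 6.76 times. On chromosome 14 the 36.1 kb held 166, 165, 160 and 90 listed peaks in the same order, or 3.62, 3.04, 2.90 and 8.36 times the mean. All 4 libraries, cocaine and saline, were raised there. The ratio was largest in the shallowest library. The lowest listed height was 2 reads in every library, so the number of listed peaks does not scale with depth and ratios of libraries of different depth are not on a par. Listed peaks covered 53.5% to 58.8% of the chromosome 17 stretch in the 3 deeper libraries and 70.9% to 72.2% of that on chromosome 14.

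Those stretches held further long low peaks and taller ones. High preference held 16, low preference 22 and saline replicate 2 24 long low peaks in the chromosome 17 stretch, and 10, 11 and 7 in that of chromosome 14. Peaks above 5 reads numbered 24, 38 and 47 on chromosome 17 and 20, 23 and 17 on chromosome 14, and none in saline replicate 1. The tallest reached 8, 8 and 10 reads on chromosome 17 and 8, 10 and 8 on chromosome 14. Counted in steps of 10 kb, density of at least 2 times the mean in all 3 deeper libraries ran without a break for 60 kb around the chromosome 14 regions. On chromosome 17, 11 of the 13 steps between the first and last region were that dense. Between the ends of the pair on chromosome 1, a span of 4.45 kb that the regions themselves partly fill, 14 peaks were listed in high preference, 21 in low preference and 13 in saline replicate 2, or 2.47, 3.08 and 1.94 times the mean. Saline replicate 1 listed 6, or 4.51 times its mean. In the 10 kb on either side of these neighbours the 3 deeper libraries stood at 1.03 to 1.22 times the mean, against 2.56 times or more in high preference beside the regions of the other stretches.

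The surroundings of the 60 regions were dense too. The rule did not use them, except where another of the 60 regions lay within 10 kb. In the 10 kb on either side the mean number of listed peaks was 47.4 for high and 50.6 for low preference, and in the saline libraries 17.9 in replicate 1 and 49.9 in replicate 2. That was 1.87, 1.65, 2.99 and 1.66 times the autosome mean. The flanks were above the mean at 54, 57, 48 and 52 of the 60 regions. Beside regions long in 1 library only the ratios were 1.17, 1.16, 1.20 and 1.15, closer to the mean in all 4 libraries. For the 47 regions with no neighbour within 100 kb the ratios were 1.55, 1.42, 2.03 and 1.41, and at least 2 was reached at 12, 3, 17 and 4 of them. In saline replicate 1 the median of these was 1.34, and the ratio ran up to 8.21 at chromosome 9 850456. At the low end the flanks of chromosome 20 30470510 stood at 0.827, 0.816, 0.335 and 0.664 times the mean, and both saline libraries still listed short peaks within that region. Whether the local density accounts for the overlaps was not tested beyond the expected numbers within bins.

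**Figure D4:**
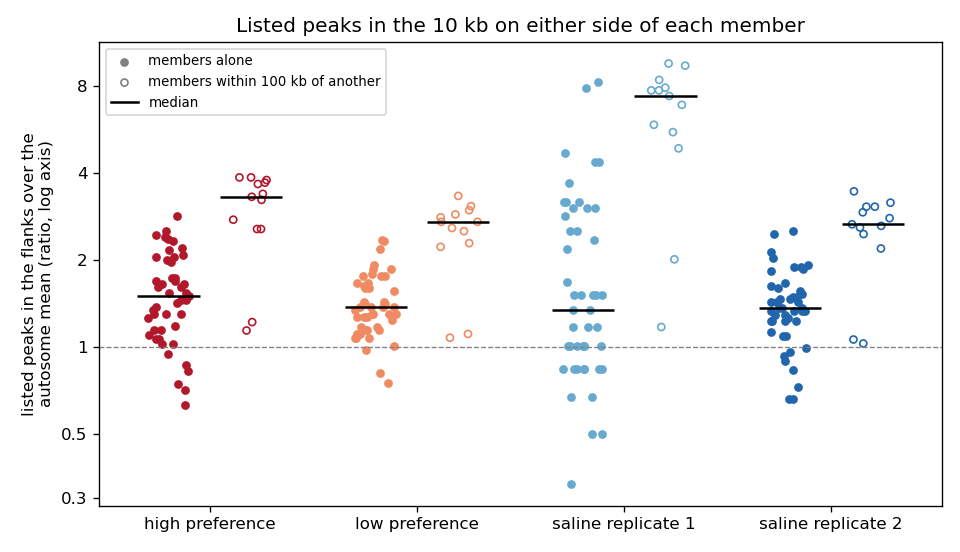
Listed peaks in the 10 kb on either side of each region, as a ratio to the autosome mean of the library (log axis), for the 47 regions alone (filled) and the 13 within 100 kb of another (open), with medians as black lines. In the 3 deeper libraries 11 of the 13 open points lie above 2 and the low ones are the neighbours on chromosome 1, and in saline replicate 1 it is 12 of 13.

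Without the 3 stretches the overlaps were fewer but still above the uniform expectation. They numbered 25 against 6.30 for high with low preference, 19 against 5.97 for high preference with saline replicate 2, and 29 against 11.0 for low preference with saline replicate 2. The ratios were 3.97, 3.18 and 2.64. The share of regions with a listed peak of saline replicate 1 was 25 of 47, or 53.2% (39.2 to 66.7), in the regions outside the stretches and 11 of 13 inside.

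Long peaks in the 60 regions are set beside other long low peaks of the same library as a description only. The rule used both lengths and heights. The median length was 362 bp in high preference (34 peaks), 333 bp in low preference (47) and 341 bp in saline replicate 2 (41), against 324, 326 and 326 bp in the rest. At least 400 bp was reached by 26.5%, 17% and 24.4%, against 7.38%, 7.71% and 8.34%. Longer peaks meet another peak more easily. Weighting for this would bring the mean length to 341, 342 and 342 bp from 338, 339 and 339 bp. The means in the regions were 376, 358 and 372 bp. Whether the ease of meeting accounts for the lengths was not tested. A height of 5 reads, the most the rule allowed, was held by 11, 14 and 16 of these peaks, or 32.4%, 29.8% and 39.0%. In the rest it was 12.7%, 14.2% and 14.3%. Outside the stretches the shares were 18.5%, 25.0% and 32.3%.

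Between libraries the lengths in shared regions are given as a description. The rule asked for at least 300 bp in both libraries, which limits how far their lengths can differ. Over the 21 regions long in both cocaine libraries the peak of high preference had a median length of 1.09 times that of low preference, with high preference longer at 16 and a range of 0.643 to 1.93. Over 15 regions the median ratio of high preference to saline replicate 2 was 1.00 (range 0.6125 to 1.286), with high preference longer at 8. Over 28 regions that of low preference to saline replicate 2 was 1.03 (range 0.4964 to 1.964), with low preference longer at 16. The first of these ratios was 1.00 when the minimum length was 250 bp, so the longer peaks of high preference were not seen with the shorter limit. Heights were compared here for the long peaks themselves, not for the tallest listed peak of the region. They were equal at 8 of 21, 6 of 15 and 10 of 28 regions. The long peak of high preference was taller than that of low preference at 7 and shorter at 6. That of saline replicate 2 was taller than that of high preference at 6 and shorter at 3. Against low preference it was taller at 12 and shorter at 6. These heights rest on 2 to 5 reads, and their differences between libraries were not tested.

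**Figure D5:**
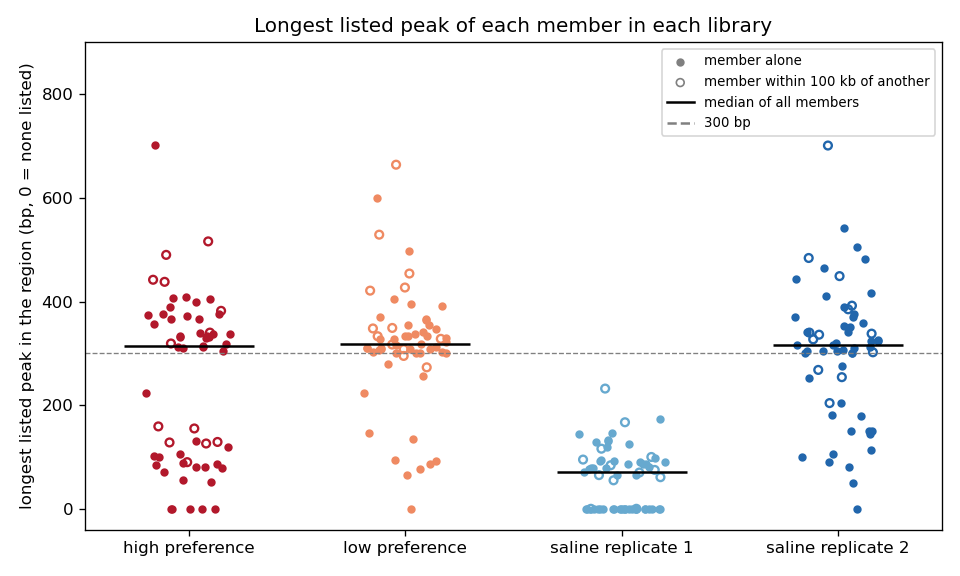
Longest listed peak (bp) of each of the 60 regions in each library, with 0 where none is listed, the median as a black line and the 300 bp limit dashed; open points are regions within 100 kb of another. In the 3 deeper libraries the points above the dashed line were chosen by the rule, at 34, 47 and 41 regions, and in saline replicate 1 all 60 lie at 232 bp or lower.

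The ends of the long peaks did not line up. In regions long in both libraries of a pair the starts lay a median of 235 bp apart for high and low preference, 83.0 bp for high preference and saline replicate 2, and 150.0 bp for low preference and saline replicate 2. Starts within 20 bp were seen at 1, 2 and 2 regions, and ends within 20 bp at 2, 2 and 1. Nearness to a chromosome end set the regions apart little. Of the 60, 3 lay within 2 Mb of a chromosome end, or of the first or last listed position. That zone makes up 3.13% of the length and 3.15% of merged regions with no peak above 5 reads.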

How the data were processed

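Anti-PARP1 ChIP-seq was analysed from 4 deposited peak lists, 1 per library and not pooled. An input sample was not analysed here. Bowtie 0.12.7, Picard 1.37 and the build rn4 are named, per the submitters' processing notes. Which program called the peaks, and how, is not given in the sources used here. The lists carry a duplicate mode that is not explained, and repeated copies of a fragment would raise a height. Reads without molecular identifiers are not independent molecules. Per the file headers the first 5 of 7 columns are a number, the chromosome, start, end and summit position. The deposited column 6 held whole numbers from 2, taken here as an unscaled signal: the pileup height in reads. The deposited column 7, between 0 and 1, was read as a p-value and was not used.

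Groups came from the group label of each sample. Length is end minus start, and overlap means at least 1 bp. Expected overlaps are sums over all pairs of peaks of the placements that overlap, divided by the length of the chromosome or bin; a chromosome's length was its last listed position. The formula and the choice of regions were checked on simulated data. No test between groups was run, with 1 library per cocaine group. Intervals are exact Poisson and 95% Wilson and cover counting error only. The rule for regions described one by one took those long in all 3 deeper libraries, the 5 with the longest peak of saline replicate 1, the 3 leading regions of each pair, those of 5 reads in all 3 deeper libraries and those nearest the limits. The regions and measures were chosen with earlier results of these data known. Alternatives were other limits of length, height and overlap, other expected numbers and leaving out each library. Python 3.11.15, pandas 2.3.3 and scipy 1.17.1 were used.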

Additional observations from a re-analysis of the deposited data

How the results depend on the processing

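The number of regions depended strongly on the rule. It was 533 with a minimum length of 250 bp, 5 with 400 bp and 29 with a height of at most 4, and 20 to 60 when a library was left out, with the low end without low preference; with fewer libraries to choose from a lower count is built in. Regions long in all 3 libraries numbered 14 with 250 bp, 0 with 400 bp, 0 with a height of at most 4 and 1 with an overlap of at least 50% of the shorter peak. The share of regions with a listed peak of saline replicate 1 was 35.3% with 250 bp, 80% with 400 bp (5 regions), 41.4% with a height of at most 4 and 18.3% for a listed height of 3 or more, and 61.8% to 72.4% without a deeper library.

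Observed over expected overlap stayed above 1 under every setting run. For high with low preference it was 2.26 with 250 bp, 37.1 with 400 bp, 3.13 with a height of at most 4 and 2.17 with 100 kb bins. For high preference with saline replicate 2 it was 2.69, 75.7, 2.21 and 1.83 under the same settings, and 6.45 with an overlap of at least 50%. For low preference with saline replicate 2 it was 2.20, 20.2, 2.07 and 1.81, and 2.64 without the 3 stretches. The ratios with 400 bp rest on few overlapping pairs, with only 5 regions left at that limit, and are given without an interval. The order of the 3 pairs changed with the setting. With 250 bp the median length in high preference was 0.9998 times that in low preference. With 400 bp low preference had 1.29 times the length of saline replicate 2, but this is the value of a single region. It lay on chromosome 1 at 243630343 to 243631008, with 600 bp in low preference and 464 bp in saline replicate 2. Listed peaks beside the regions, as a mean over the 4 libraries, were 2.04 times the autosome mean and 2.99 times with 400 bp. The cause of these shifts was not tested. The settings with 100 kb bins and without the stretches were chosen after seeing the data. Heights of 2 to 5 reads limit what any of these values can show. No paired analysis was possible because each cocaine group has 1 library and the numbers of the saline replicates only follow their order of deposit.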
